A study of Rattus norvegicus with 12 samples.

Results

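AMPA receptor genes were examined in the inferior colliculus (IC), the auditory centre of the midbrain, of SD rats deafened on 1 side. The gene set holds 7 listed members, the 4 receptor subunit genes Gria1, Gria2, Gria3 and Gria4 and the auxiliary genes Cacng2, Cacng3 and Cacng8. A member was measured where a probe of the array was listed with its symbol and no other, and this held for 4 of the 7: Gria3, Gria4, Cacng2 and Cacng3, each with 1 probe, among 18166 genes measured in all. The probes that list Gria2 and Cacng8 list a second symbol as well, so these members are not analysed here, and no probe in the table used here is listed with Gria1. All 4 measured members entered every test, since no filter on dim genes was applied.

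Arrays came from 4 groups of 3: control rats, left IC or right IC, and single-sided deaf rats, again left IC or right IC. Deaf rats (20) had lost the right cochlea by surgery, control rats (20) had a sham operation with an incision behind the ear and an unopened bulla, and tissue was taken after 2 weeks. The strain entry is SD for all, and no age or sex is given in the sources used here. The series title and sample descriptions name hippocampus, and the descriptions of deaf samples name a noise group, whereas titles, source names and tissue entries name the IC. Neither the number of rats behind an array nor whether left and right arrays share rats is given, so p-values reflect only the variation among these 12 arrays, part of which may be technical.

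AMPA receptors are glutamate-gated cation channels, assembled from the subunits GluA1 to GluA4 (encoded by Gria1 to Gria4), and carry most fast excitatory transmission in the brain. Receptors with GluA2 pass little calcium, because its RNA is edited at a pore site, and GluA4 is typical of fast auditory synapses. Cacng2 (stargazin), Cacng3 and Cacng8 encode transmembrane AMPA receptor regulatory proteins (TARPs), which bring receptors to the synapse and slow their closing. Ascending auditory input is mainly crossed, so that ablation of the right cochlea chiefly deprives the left IC, and the comparison asks whether receptor genes differ between deaf and control rats on each side.

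The 250 bases before the annotated start are given for the 3 measured members with a promoter entry. Of these, Cacng2 and Cacng3 varied together within groups of arrays, whereas Gria4 varied little. Without left control 2 and left deaf 1, r of the values themselves, with group means not removed, was 0.13 over the remaining arrays. The r of deviations from group means was not recomputed without these arrays. The stretches are RefSeq sequences of build GRCr8, 5′ to 3′ on the gene's strand. Capitals mark matches to any of 4 motifs searched on both strands. The letters searched were TATAAA, known as the site where the transcription machinery can bind, then CCAAT, which is bound by the factor NF-Y, then GGGCGG, bound by Sp1 and related factors, and TGACG, the core of a cyclic AMP response element. The table of promoters used here holds no entry for Gria3.
Gria4, chr8:10319882-10320131, minus strand: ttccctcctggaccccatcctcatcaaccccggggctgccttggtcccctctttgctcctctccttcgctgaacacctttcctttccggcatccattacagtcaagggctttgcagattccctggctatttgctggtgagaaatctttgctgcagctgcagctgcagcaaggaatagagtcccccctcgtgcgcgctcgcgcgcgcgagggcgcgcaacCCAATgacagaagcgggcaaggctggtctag
Cacng2, chr7:111577758-111578007, minus strand: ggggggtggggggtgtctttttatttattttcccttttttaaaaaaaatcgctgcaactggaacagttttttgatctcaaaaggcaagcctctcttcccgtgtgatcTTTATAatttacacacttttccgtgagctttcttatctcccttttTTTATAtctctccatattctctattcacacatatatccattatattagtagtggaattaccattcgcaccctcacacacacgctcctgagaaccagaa
Cacng3, chr1:186632312-186632561, plus strand: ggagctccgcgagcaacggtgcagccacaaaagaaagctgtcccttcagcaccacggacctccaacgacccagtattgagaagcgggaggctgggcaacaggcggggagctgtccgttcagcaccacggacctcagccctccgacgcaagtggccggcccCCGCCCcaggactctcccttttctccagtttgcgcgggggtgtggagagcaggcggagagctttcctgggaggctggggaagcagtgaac
The Gria4 stretch held 1 match to CCAAT, which begins 31 bases before the start. The Cacng2 stretch held 2 matches to TATAAA, at 143 and 98 bases before the start, both on the opposite strand. The Cacng3 stretch held 1 match to GGGCGG on the opposite strand, at 90 bases before the start. No marked match overlapped another, and TGACG was not in these windows. Over 33469 promoters of the same length, CCAAT was found in 34%, TATAAA in 12.9%, GGGCGG in 30.5% and TGACG in 18.2%. The GC content was 59.6% for Gria4, 38.4% for Cacng2 and 64.8% for Cacng3, against a median of 51.2%. CpG dinucleotides numbered 14, 5 and 16, against a median of 5. The stretches of Cacng2 and Cacng3 were thus unlike in base composition, and a link between sequence and array values was not tested.

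The deposited values are log2 intensities, so 1 unit is a doubling, and they ran from 1.33 to 13.1. Correlations between arrays were 0.984 to 0.994, and right control 3 lay farthest out on the first principal component (27.3, other arrays -15.0 to 8.68). Markers of IC neurons were present: Slc17a6, the vesicular glutamate transporter 2 gene, was at 9.56 to 9.99 over the 12 arrays and the GABA-synthesis gene Gad1 at 9.82 to 10.3. Tfap2b and Slc6a5 of the same list of 10 had lower means, 5.32 and 5.31, and Slc6a5 ranged from 4.65 to 7.23. Of 8 measured hippocampal and cortical markers, Neurod6 (2.92 to 4.08) and Tbr1 (4.09 to 4.82) had means below the lower quartile of genes, 4.48, whereas Wfs1 (mean 7.02) and Prox1 (6.17) lay above the median, 5.97. All measured members had means between percentiles 90.9 and 94.9 of the gene means, far from the dim end of the scale.

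Gria3, which encodes GluA3, was nearly constant. In left control arrays it was at 8.86, 8.88 and 8.89, and in left deaf arrays at 8.91, 8.88 and 8.93. In right control arrays it was at 8.83, 8.85 and 8.99, and in right deaf arrays at 8.90, 8.90 and 8.91. Deaf and control arrays overlapped on each side, and the highest value and the lowest both came from right control. All 12 arrays lay within 0.15 on the log2 scale, a 1.11-fold range, and the residual SD of 0.045 was at percentile 0.908 of all genes. Group means were ordered left control (8.87), right control (8.89), right deaf (8.90) and left deaf (8.91). No neighbours in this order differed beyond the larger of their SDs (0.016, 0.085, 0.0068 and 0.026). Left control and left deaf, at the ends of the order, differed by 0.035, beyond both of their SDs. Their arrays overlapped, and the difference did not pass the test given below.

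Gria4, which encodes GluA4, also varied little. It was at 8.93, 9.04 and 8.94 in left control and at 9.05, 8.90 and 9.03 in left deaf arrays. It was at 8.94, 9.04 and 8.94 in right control and at 9.04, 8.97 and 9.04 in right deaf arrays. Every group held an array near 9.04 and a lower one, and the groups overlapped. The order of means was left control (8.97 ± 0.061, SD, n = 3), right control (8.97 ± 0.060), left deaf (8.99 ± 0.085) and right deaf (9.01 ± 0.042), with steps smaller than these SDs. The whole range was 0.16, a 1.12-fold range, and the residual SD was 0.064, at percentile 4.32.

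Cacng2, the gene of the TARP stargazin, had a wider range than the subunit genes. It was at 8.97, 8.62 and 8.87 in left control and at 8.67, 8.77 and 8.95 in left deaf arrays. It was at 9.02, 8.98 and 8.89 in right control and at 8.75, 8.82 and 8.96 in right deaf arrays. Right control held the highest value and the highest mean, 8.96 ± 0.067 (SD, n = 3), but right deaf 3 lay above right control 3, so the groups overlapped. Means then followed for right deaf (8.84 ± 0.11), left control (8.82 ± 0.18) and left deaf (8.80 ± 0.14). The step from right control to right deaf, 0.12, slightly exceeded both SDs and did not pass the test given below, and the other steps were within the SDs. The 12 arrays spanned 0.40, a 1.32-fold range, and the residual SD, 0.13, was near the median of all genes, 0.152.

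Cacng3, the gene of the TARP called gamma-3, was the least constant member. Its values were 8.53, 8.08 and 8.72 in left control and 8.07, 8.67 and 8.70 in left deaf arrays. They were 8.40, 8.71 and 8.19 in right control and 8.41, 8.57 and 8.87 in right deaf arrays. The low arrays, left deaf 1, left control 2 and right control 3, came from 3 different groups, and deaf and control arrays overlapped on each side. Means ran from 8.43 ± 0.26 (SD, n = 3) in right control through 8.44 ± 0.33 in left control and 8.48 ± 0.36 in left deaf to 8.62 ± 0.23 in right deaf, with every step below these SDs. The range over the 12 arrays was 0.80, a 1.75-fold range, and the residual SD of 0.30 was at percentile 92.7. The plot of values by group shows the narrow ranges of Gria3 and Gria4, the middling one of Cacng2, whose residual SD was at percentile 37.4 of all genes, and the wide one of Cacng3.

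**Figure D1:**
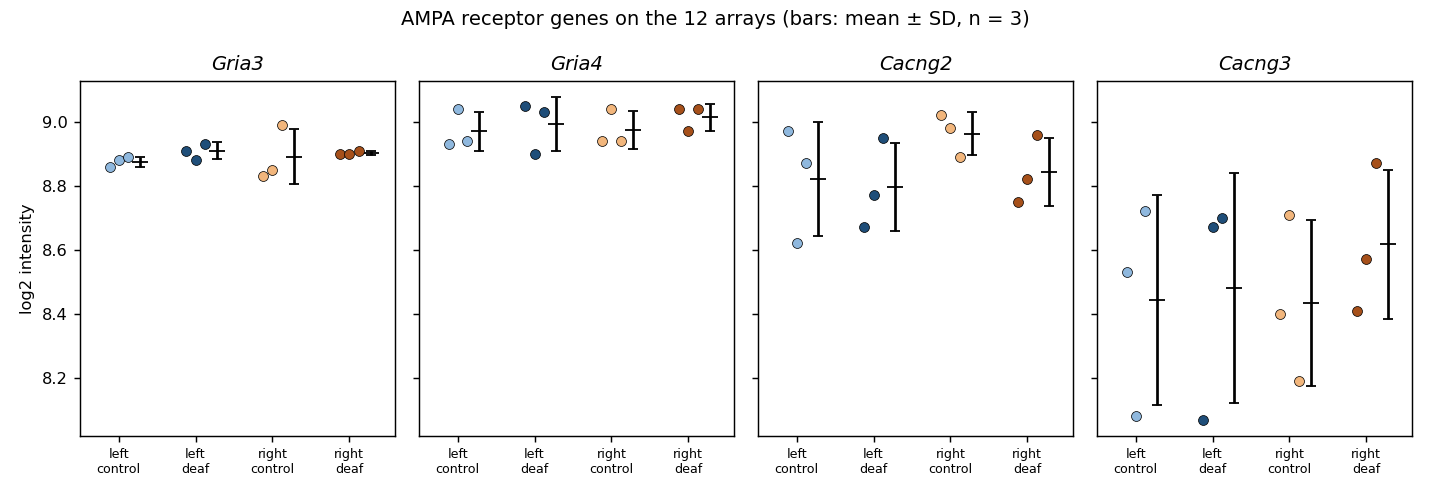
Log2 intensity (vertical axis) of Gria3, Gria4, Cacng2 and Cacng3 on each of the 12 arrays, by group (horizontal axis); points are arrays and bars are the group mean ± SD (n = 3). Gria3 and Gria4 stay within 0.15 and 0.16, Cacng2 spans 0.40 and Cacng3 0.80, and the groups overlap in each panel; levels of different probes are not comparable.

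In the left IC, opposite the removed cochlea, no member passed the test for a difference between deaf and control rats. Values here are differences of group means of log2 values, deaf minus control, tested with limma across all genes. Gria3 was at 0.035 (SE 0.071) and Gria4 at 0.022 (SE 0.077). Cacng2 was at -0.026 (SE 0.11) and Cacng3 at 0.038 (SE 0.21). Unadjusted p was 0.632, 0.781, 0.817 and 0.861 in this order, and the limma adjusted p was 1.00 for each. The 95% intervals as fold changes were 0.920 to 1.14 for Gria3, 0.904 to 1.14 for Gria4, 0.835 to 1.16 for Cacng2 and 0.746 to 1.41 for Cacng3. The subunit intervals leave room for changes of at most about 1.14-fold up, whereas the interval of Cacng3 is wide enough to hold a 1.41-fold rise.

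Those 0 of 4 calls stand beside 0% of 18166 genes called at an adjusted p under 0.05, and 0 of 4 at an unadjusted p under 0.05 beside 3.69% (670 genes). Deaf and control arrays overlapped for all 4, where 10.3% of genes had groups that did not overlap. The median change of the 4 was 0.028, beside -0.0051 over all genes, and 3 of the 4 changes were above 0. All 10 markers of IC neurons had lower means in left deaf arrays (median -0.11; list scores, the mean of gene-centred values, 0.038 to 0.040 in left control and -0.21 to -0.052 in left deaf). All 7 meningeal markers were higher (median 0.38), with scores of -0.48 to 0.11 in left control and -0.10 to 0.69 in left deaf arrays. Of 6 measured myelin genes 5 were lower in left deaf arrays (median -0.067), with scores of 0.0028 to 0.025 in left control and -0.18 to -0.047 in left deaf arrays. The part of these lists in the members' values was not tested. In bulk tissue, fewer cells of a type and less RNA per cell cannot be told apart. Without left control 2, a low array for both TARP genes, Cacng3 was at -0.14 and Cacng2 at -0.12. Without left deaf 1, the other low array, Cacng3 was at 0.25 and Cacng2 at 0.035, so the sign of each turned with 1 array left out.

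In the IC beside the removed cochlea, the right one, no member passed the test either. The largest changes were those of the TARP genes, with Cacng3 at 0.18 (SE 0.21) and Cacng2 at -0.12 (SE 0.11). Gria4 was at 0.040 (SE 0.077) and Gria3 at 0.012 (SE 0.071). Unadjusted p was 0.403, 0.292, 0.615 and 0.872 in this order, with a limma adjusted p of 1.00 for each. As fold changes, the 95% intervals were 0.825 to 1.56 for Cacng3, 0.783 to 1.08 for Cacng2, 0.915 to 1.16 for Gria4 and 0.906 to 1.12 for Gria3. Of the 18166 genes 0% were called after adjustment and 4.31% (783) had an unadjusted p under 0.05, against 0 of 4 members. Groups did not overlap for 7.48% of genes and for 0 of 4 members. The median change of the 4 was 0.026, beside 0.0014 over all genes. Cacng3 was at 0.32 without right control 2, at 0.061 without right control 3 and at 0.057 without right deaf 3, the array with its highest value. Cacng2 was at -0.072 without right deaf 1. With 1 array left out Gria4 ranged from 0.020 (without right control 3) to 0.075 (without right control 2), and Gria3 from -0.017 (without right control 1) to 0.060 (without right control 3).

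Cerebellar tissue lies beside the IC, and Cacng2 is known for its high expression in cerebellar granule cells. All 10 cerebellar markers were lower in right deaf than in right control arrays (median -0.49), with scores of 0.089 to 0.77 in right control and -0.23 to -0.13 in right deaf arrays. The granule cell gene Gabra6 was at 4.38 ± 0.80 (SD, n = 3) in right control and 2.84 ± 0.34 in right deaf arrays, both means below the lower quartile of genes. The 8 hippocampal and cortical markers were also lower in right deaf arrays (median -0.18), led by Slc17a7, the vesicular glutamate transporter 1 gene (-1.51, SE 0.26, limma adjusted p = 1.00). The cerebellar score was highest on right control 3, at 0.77. Without that array the change of Cacng2 was -0.16, while the scores of the remaining right control arrays, 0.37 and 0.089, were still above those of all right deaf arrays. Myelin genes were lower in right deaf arrays in 6 of 6 (median -0.12), with scores of 0.041 to 0.20 in right control and -0.097 to 0.015 in right deaf arrays. The part of these marker lists in the values of Cacng2 and Cacng3 was not tested.

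Averaged over both sides, the differences of the 4 members ran from -0.072 (Cacng2, SE 0.076) to 0.11 (Cacng3, SE 0.15). Gria3 was at 0.023 (SE 0.050) and Gria4 at 0.031 (SE 0.054), and the limma adjusted p was 0.998 for each of the 4. This comparison gave the narrowest intervals, 0.942 to 1.10-fold for Gria3 and 0.941 to 1.11-fold for Gria4. Of 18166 genes 0% were called, 4.53% had an unadjusted p under 0.05 and in 0.27% the 6 deaf and 6 control arrays did not overlap; of the members, 0 of 4 met any of these. With 1 array left out Cacng3 ranged from 0.020 (without left control 2) to 0.21 (without left deaf 1) and Cacng2 from -0.12 (without left control 2) to -0.036 (without left control 1). Gria3 then ranged from 0.0091 (without right control 1) to 0.048 (without right control 3) and Gria4 from 0.015 (without left deaf 1) to 0.055 (without left deaf 2). Myelin genes were lower in deaf arrays in 6 of 6 (median -0.093), and for 2 of the 6 the deaf and control arrays did not overlap; their part in the members' values was not tested. The average takes left and right arrays as separate samples, which the labels do not state.

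**Figure D2:**
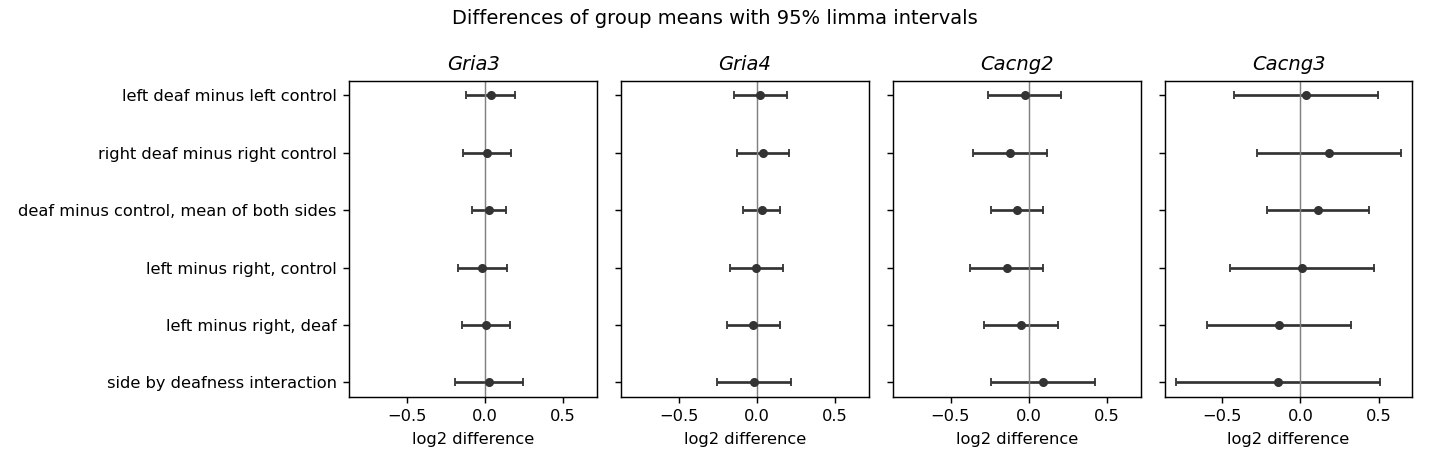
Log2 differences (horizontal axis) of the 4 measured members for the 6 comparisons (vertical axis); points are differences of group means and bars the 95% limma intervals (3 arrays per group). Each of the 24 intervals holds 0, and the intervals of Cacng3 are about as wide as 0.46 to each side within a side, against 0.15 for Gria3.

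Between the sides, control rats had Cacng2 lower on the left by 0.14 in group means (left minus right -0.14, SE 0.11), which was the smallest unadjusted p of any member in any comparison (0.214; limma adjusted p = 0.944). Gria3 differed by -0.017 (SE 0.071), Gria4 by -0.0042 (SE 0.077) and Cacng3 by 0.0094 (SE 0.21), with limma adjusted p between 0.988 and 0.997. Without left control 2 the Cacng2 difference was -0.042, and without left control 1 it was -0.21. Of all genes 0% were called, 4.95% had an unadjusted p under 0.05 and 9.8% had groups that did not overlap, against 0 of 4 members for each. Cerebellar markers were lower on the left in 9 of 10 (median -0.50) and hippocampal and cortical markers in 8 of 8 (median -0.27), and their part in the Cacng2 difference was not tested; without right control 3 that difference was -0.18.

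In deaf rats the left minus right differences were 0.0064 for Gria3 (SE 0.071), -0.022 for Gria4 (SE 0.077), -0.048 for Cacng2 (SE 0.11) and -0.14 for Cacng3 (SE 0.21). The limma adjusted p was 1.00 for each, and 0% of genes were called, 3.34% had an unadjusted p under 0.05 and 8.31% had groups that did not overlap. Without left deaf 1 the Cacng3 difference was 0.071, and without left deaf 3 it was -0.25. The difference between the sides in the effect of deafness, the interaction, was 0.023 (SE 0.10) for Gria3, -0.018 (SE 0.11) for Gria4, 0.093 (SE 0.15) for Cacng2 and -0.15 (SE 0.30) for Cacng3, with an adjusted p of 1.00 in limma for each. Of all genes 0% were called for the interaction and 3.42% had an unadjusted p under 0.05, and 0 of 4 members had either.

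Within an array, the difference of the log2 values of a gene pair is free of any scale shared by the array, and only its change between groups can be read. Gria3 minus Gria4 was -0.096 ± 0.056 (SD, n = 3) in left control and -0.083 ± 0.065 in left deaf arrays. It was -0.083 ± 0.13 in right control and -0.11 ± 0.035 in right deaf arrays. Deaf minus control, this was a difference of 0.013 on the left and -0.028 on the right, less than the spread between arrays. Cacng3 minus Cacng2 was -0.38 ± 0.20 in left control and -0.31 ± 0.26 in left deaf arrays. It was -0.53 ± 0.23 in right control and -0.23 ± 0.13 in right deaf arrays, a shift of 0.30 on the right with overlapping arrays (-0.70 to -0.27 against -0.34 to -0.089). The shift was 0.22 without right control 3 and 0.43 without right control 2. These differences are described without a test.

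The TARP genes varied together across arrays and the subunit genes did not follow them. Over the 12 arrays Cacng2 and Cacng3 had r = 0.61 (Spearman's rho 0.45), and r = 0.80 for deviations from the group means. Left control 2 and left deaf 1, from different groups, were the arrays lowest in both genes. Without them r of the values themselves was 0.13, so the r of 0.61 rests on those arrays. The r of deviations from the group means was not recomputed without them. The other 5 pairs of members had r between -0.26 and 0.079. Values come from the same arrays and share their RNA quality and tissue makeup, and are a description with no test.

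**Figure D3:**
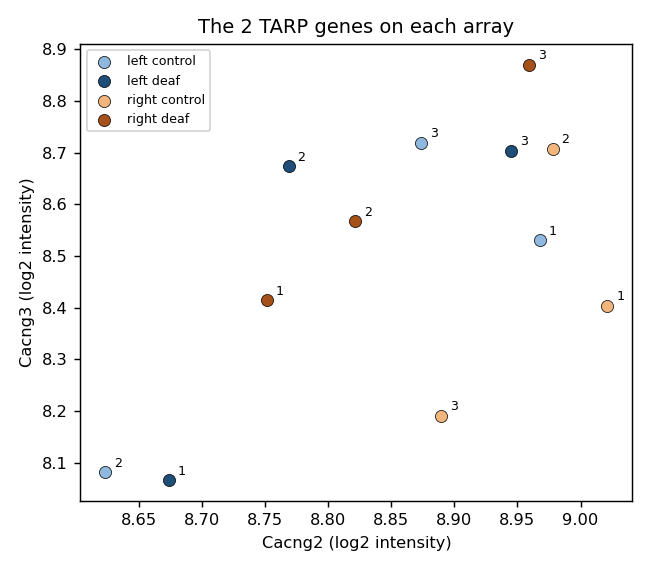
Log2 intensity of Cacng3 (vertical axis) against Cacng2 (horizontal axis) on the 12 arrays, coloured by group and numbered by replicate. Left control 2 (8.62, 8.08) and left deaf 1 (8.67, 8.07) lie lowest in both genes. Over the remaining 10 arrays r was 0.13, with group means not removed.

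The genes most like each member across the 12 arrays were sought among 9008 named genes above the median level. For Gria3 they were Dennd6b (r = 0.90), Plppr5 (0.89) and Sh2b2 (0.88). For Gria4 they were Prickle1 (0.94), Usp40 (0.87) and Psip1 (0.86). For Cacng2 they were Mllt11 (0.92), Ess2 (0.89) and Pcyt1b (0.89), and for Cacng3 they were Kctd13 (0.95), Ppp2r1a (0.95) and Dbp, a clock-controlled transcription factor gene (0.94). After group means were removed these 12 correlations were 0.87 to 0.96. No gene was shared between the members' lists. They were picked as the highest of 9008 values and are given without a test.

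The wider pathway was read from a list of 52 genes for other TARPs and auxiliary proteins, assembly, scaffolding and regulation, of which 47 were measured and 0 were called in any of the 6 comparisons. On the left, 28 of the 47 were higher and 19 lower in deaf arrays (median 0.028, beside -0.0051 over all genes). Of these, 3 (6.38%) had an unadjusted p under 0.05, beside 3.69% of all genes, and 9 (19.1%) had groups that did not overlap, beside 10.3%. On the right, 26 were higher and 21 lower (median 0.016, beside 0.0014 over all genes), 1 (2.13%) had an unadjusted p under 0.05, beside 4.31%, and 3 (6.38%) did not overlap, beside 7.48%. Among the 19 other TARPs and auxiliary proteins, 11 were higher on the left and 13 on the right; of the 6 assembly genes, 3 and 3; of the 16 scaffold and recycling genes, 10 and 9; and of the 6 kinase, phosphatase and editing genes, 4 and 1. Their changes lay between -0.36 and 0.23 on the left and between -0.11 and 0.24 on the right.

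Shisa8, which encodes an auxiliary protein of the CKAMP family, had lower values in the left deaf IC. It was at 5.06, 4.86 and 4.98 in left control and at 4.50, 4.76 and 4.64 in left deaf arrays, and the groups did not overlap. It was at 5.12, 4.90 and 5.06 in right control and at 4.76, 5.05 and 4.93 in right deaf arrays. The left change was -0.33 (SE 0.10, unadjusted p = 0.00852, limma adjusted p = 1.00), and the right change was -0.11 (SE 0.10). The mean of both sides was -0.22 (SE 0.074, unadjusted p = 0.0121, limma adjusted p = 0.998). The interaction was -0.22 (SE 0.15, unadjusted p = 0.161), so a difference between the sides was not shown. Its mean over all arrays, 4.89, is below the median of genes, where background can limit a difference.

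Akap5, the gene of an anchoring protein that holds kinases and a phosphatase near the receptor, had higher values in the left deaf IC. It was at 6.30, 6.23 and 6.26 in left control and at 6.52, 6.55 and 6.42 in left deaf arrays, with no overlap. On the right it was at 6.28, 6.33 and 6.43 in control and at 6.55, 6.31 and 6.33 in deaf arrays. The changes were 0.23 on the left (SE 0.087, unadjusted p = 0.0204, limma adjusted p = 1.00) and 0.051 on the right (SE 0.087). The mean of both sides was 0.14 (SE 0.061, unadjusted p = 0.0399, limma adjusted p = 0.998). The interaction was 0.18 (SE 0.12), so a difference between the sides was not shown.

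Vwc2, which encodes brorin, a secreted protein found in AMPA receptor complexes, had higher values in the right deaf IC. It was at 6.58, 6.64 and 6.45 in right control and at 6.77, 6.80 and 6.83 in right deaf arrays, with no overlap. It was at 6.55, 6.45 and 6.69 in left control and at 6.76, 6.68 and 6.66 in left deaf arrays. The changes were 0.24 on the right (SE 0.085, unadjusted p = 0.0143, limma adjusted p = 1.00) and 0.14 on the left (SE 0.085), and the mean of both sides was 0.19 (SE 0.060, unadjusted p = 0.00830, limma adjusted p = 0.998). Without right control 3 the right change was 0.19. The interaction was -0.11 (SE 0.12), so a difference between the sides was not shown. Neither Vwc2 nor Shisa8 nor Akap5 passed over all genes.

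Adarb1, the gene of the enzyme that edits the pore site in Gria2 RNA, is named after its values were seen, as the remaining left gene at an unadjusted p under 0.05. It was at 9.73, 10.19 and 9.66 in left control and at 9.72, 9.43 and 9.37 in left deaf arrays, and left deaf 1 lay above left control 3. It was at 9.73, 9.69 and 9.63 in right control and at 9.75, 9.65 and 9.62 in right deaf arrays. The left change was -0.36 (SE 0.13, unadjusted p = 0.0214, limma adjusted p = 1.00) and the right change -0.0099 (SE 0.13). Left control 2 was the high array, and without it the left change was -0.19. Olfm1, the gene of the secreted protein noelin, was likewise named after its values were seen, for left minus right in deaf rats (-0.20, SE 0.086, unadjusted p = 0.0406, limma adjusted p = 1.00), and the other pathway gene there was Shisa8 (-0.28, SE 0.10). In that comparison 8 of 47 pathway genes (17.0%) had groups that did not overlap, beside 8.31% of all genes. For Olfm1 the left and right deaf arrays overlapped. In control rats its left minus right difference was -0.11 (SE 0.086, limma adjusted p = 0.944), with no overlap. The Olfm1 interaction was -0.087 (SE 0.12), so a difference between deaf and control rats was not shown.

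**Figure D4:**
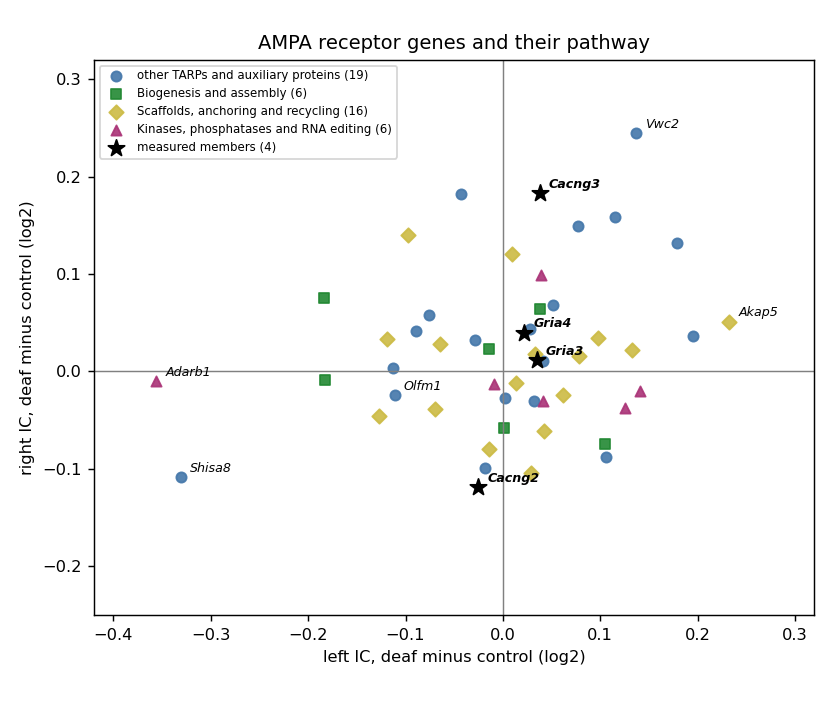
Deaf minus control log2 difference in the right IC (vertical axis) against that in the left IC (horizontal axis) for the 47 measured pathway genes, by role, and the 4 measured members (stars). The members lie between -0.026 and 0.038 on the left axis and between -0.12 (Cacng2) and 0.18 (Cacng3) on the right axis; Adarb1 (-0.36), Shisa8 (-0.33) and Akap5 (0.23) lie farthest out on the left axis and Vwc2 (0.24) on the right axis; no gene passed adjustment over all genes.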

How the data were processed

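Data of 12 arrays were used as deposited: log2 intensities from 1-colour, biotin-labelled Affymetrix arrays per the labels, already normalized between arrays by the authors, with the software, array model and genome build not given in the sources used here. That the scale is log2 was read from the values (1.33 to 13.1, median 5.34 over all probes and arrays together). Of 29489 probes, 18511 had 1 gene symbol, 575 several and 10403 none; probes with 1 symbol were used, the brightest per gene, giving 18166 genes. The 4 members' Entrez identifiers matched RefSeq symbols. limma 3.58.1 (R 4.3.3) fitted 4 group means over all 12 arrays (8 residual and 3.79 prior degrees of freedom); tests were two-sided and adjusted by Benjamini-Hochberg over all genes, threshold 0.05. The smallest p an exact permutation of 3 against 3 arrays allows is 0.1. The fit was tested on simulated data.

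All members were named; pathway genes were named where arrays did not overlap and the change was at least 0.2, up to 3 per direction by p. Members and lists were chosen with earlier results of these data known. Of the planned within-array balances, those with Gria1, Gria2 or Cacng8 were not run, and Gria3 minus Gria4 and Cacng3 minus Cacng2 were added after seeing the data. Alternatives were quantile normalization, median centring, a filter at the median level, every probe on its own, probes averaged per gene, a robust fit with a variance trend, weighted arrays, fits of the compared groups alone, a replicate block, each array left out, and right control 3 and left deaf 2 left out together.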

Additional observations from a re-analysis of the deposited data

How the results depend on the processing

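None of the 4 members was called in any comparison under any alternative, and 37 of 520 recomputed member changes turned sign, all of them small beside their errors. With array weights, control left minus right was 0.0022 for Gria3 and -0.051 for Cacng3, and the Gria4 interaction was 0.020. Without right control 3 and left deaf 2 together, Cacng3 on the left was -0.058, control left minus right was 0.032 for Gria3 and -0.11 for Cacng3, deaf left minus right was 0.026 for Gria4, and the interactions were -0.012 for Gria3 and 0.050 for Gria4. With 1 array left out, left deaf minus control ranged from -0.0095 to 0.070 for Gria4, -0.12 to 0.047 for Cacng2 and -0.14 to 0.25 for Cacng3, and right deaf minus control from -0.017 to 0.060 for Gria3. Control left minus right then ranged from -0.045 to 0.032 for Gria3, -0.039 to 0.031 for Gria4 and -0.13 to 0.19 for Cacng3. Deaf left minus right ranged from -0.0061 to 0.020 for Gria3, -0.053 to 0.026 for Gria4, -0.12 to 0.013 for Cacng2 and -0.25 to 0.071 for Cacng3. The interaction ranged from -0.025 to 0.051 for Gria3, -0.053 to 0.030 for Gria4, -0.0057 to 0.17 for Cacng2 and -0.33 to 0.062 for Cacng3. The cause of these turns was not tested beyond the array left out. The 192 recomputed changes of the named pathway genes kept their sign and none passed.

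Over all genes 0 were called in each comparison, against 607 to 900 at an unadjusted p under 0.05. With 1 array left out this number was 564 to 964 on the left, 674 to 1299 on the right, 691 to 1089 for the mean of both sides, 729 to 1860 for control left minus right, 542 to 784 for deaf left minus right and 561 to 1144 for the interaction, so the shares of all genes set beside the members move with it. The 1299, 1860 and 1144, over 1.5 times the counts with all arrays, came without right control 1. Above the median level 1 gene was called on the left and 1 for deaf left minus right, and with a variance trend 1 and 2; with 1 array left out 0 to 1 were called on the left (without left deaf 3) and for the mean of both sides (without right control 3). The replicate block called 1 gene for control left minus right and 1 for the interaction, and no member. Same-numbered arrays of different groups had correlations of deviations from -0.19 to 0.16, with 3 of 18 over 0.1. Differently numbered arrays were not compared, so these values cannot show whether replicate numbers mark shared rats. The 3 arrays per group limit the precision.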
